A study of Homo sapiens with 48 samples.

Results

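The lysosome and autophagy genes described here are 43 genes taken by symbol from the count table of a study of H1975 cells, and all 43 symbols were among its 27978. They comprise 11 subunits of the vacuolar proton pump (6 of the V1 sector and 5 of the V0 sector), 15 hydrolases and their cofactors, 7 membrane and sterol transport proteins, 8 autophagy factors and the 2 transcription factors TFEB and TFE3. The class of hydrolases and their cofactors is called hydrolases for short, though its precursor proteins PSAP and GRN are not hydrolases. H1975 cells derive from a human lung adenocarcinoma and carry a mutated EGFR gene, and gefitinib is an inhibitor of the EGFR kinase. CKI is compound kushen injection, and YFSJ is a preparation whose name the labels do not spell out. The study has 16 groups with 3 RNA-seq libraries each, 48 in all. The combination groups were CKI at 1 or 2 mg/mL with gefitinib at 50 or 75 µM, and YFSJ at 2.5 or 5 mg/mL with gefitinib at 50 or 75 µM. In the single-agent groups the same doses were given alone: CKI 1 or 2 mg/mL, YFSJ 2.5 or 5 mg/mL, gefitinib 50 or 75 µM. All treated groups were taken at 24 h, and untreated cells were taken at 24 h and at 0 h. No vehicle group was among these 16, and all groups came from 1 cell line. The labels call the libraries of a group biological replicates without saying that they came from separate cultures, so the p-values measure the spread between these libraries, which may be technical.

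Lysosomes break down proteins, lipids, sugars and nucleic acids delivered by endocytosis and autophagy. The vacuolar ATPase, whose V1 sector splits ATP in the cytosol and whose V0 sector carries protons through the membrane, keeps the lumen acidic, as the acid hydrolases require. Heavily glycosylated proteins such as LAMP1 line the membrane, and NPC1 and NPC2 pass on cholesterol freed from lipoproteins. Autophagy starts with the ULK1 kinase, grows a membrane marked by WIPI proteins and the lipid-anchored LC3 and GABARAP proteins, and takes up cargo through receptors such as SQSTM1. TFEB and TFE3 bind E-box-like elements in promoters of many of these genes, and phosphorylation by mTORC1 holds them in the cytoplasm. Transcript counts measure neither where these factors are in the cell, nor protein, nor the turnover of autophagosomes. In bulk RNA a lower level in each cell and fewer cells with a high level cannot be told apart.

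Library totals ran from 16428398 to 26264162 counts, and a floor of 3 counts corresponded to 0.107 to 0.193 CPM (the usual depth-scaled unit, here the counts of a gene over the scaled total of its library), covering counting error only. All 5 epithelial genes examined were above 1 CPM (EPCAM had a median of 157 CPM). Of 6 lung epithelial genes 3 were, with medians of 1445 CPM for KRT7, 44.7 CPM for NKX2-1 and 1.93 CPM for NAPSA, while SFTPB, SFTPC and SCGB3A2, defining genes of secretory lung cells, were at or near 0 (medians of 0.0431, 0 and 0 CPM). Of 6 genes of luminal breast 0 had a median above 1 CPM. ESR1, PGR, TFF3 and PIP were at or near 0 (medians of 0.125, 0, 0 and 0 CPM). GATA3 had a median of 0.681 CPM and TFF1 of 0.340 CPM, with at most 1.47 and 4.78 CPM in any library. The sum over these 6 genes was 3.44 to 5.68 CPM at 0 h and 1.08 to 1.74 CPM in untreated cells at 24 h. The labels call the line H1975 but give with it the catalogue number of MCF-7, which derives from breast. Of 7 macrophage and blood genes, which matter here because macrophages are rich in lysosomal transcripts, CSF1R (median 17.7 CPM) and CD14 (2.03 CPM) were above 1 CPM and PTPRC, ITGAM, TYROBP, C1QA and MRC1 were at or near 0. The sum over these 7 genes was 21.2 to 25 CPM with gefitinib 75 µM and 20.5 to 22.9 CPM with CKI 2 mg/mL, against 15.1 to 18.8 CPM in untreated cells at 24 h. The part of this sum in the results was not tested. In 10 libraries (all 3 of CKI 2 mg/mL with gefitinib 75 µM, 2 each of CKI 2 mg/mL with gefitinib 50 µM and of CKI 1 mg/mL with gefitinib 75 µM, and all 3 of YFSJ 2.5 mg/mL) the liver gene ALB had 2581 to 3557 counts, against at most 8 counts in the other 38 libraries. Libraries 1 and 2 of the 0 h group stood apart from library 3, as described with that comparison, and library 2 of YFSJ 2.5 mg/mL with gefitinib 75 µM held 2.18% of its counts in the mitochondrial RNR2 gene, the highest share in the series.

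Of the 43 genes, 42 passed the filter on low counts (at least 10 counts in enough libraries). The sialidase gene NEU1 did not, with 0 to 3 counts in every library. EHMT2, a chromatin gene near NEU1 in the RefSeq annotation, had 0 to 5 counts, and the cause was not tested. Among the others the level per kilobase of transcript in untreated cells at 24 h was highest for CTSD, an aspartic protease, at 415 CPM per kb, followed by PSAP, the precursor of the saposins that help sphingolipid hydrolases, at 350.1 CPM per kb. The tetraspanin gene CD63 had 339 CPM per kb, ATP6V0C, a subunit of the pump's proton-carrying ring, 268 CPM per kb and GRN, the progranulin precursor, 253 CPM per kb. The lowest levels were those of ATP6V0D2 at 0.985 CPM per kb, WIPI1 at 4.60 CPM per kb and TFEB at 4.67 CPM per kb. Across the 16 groups, the ratio of the highest to the lowest group mean was largest for ATP6V0D2 (18.4), GPNMB (13.6) and GABARAPL1 (8.05), and smallest for ATP6V1C1 (1.22), GUSB (1.30) and CTSZ (1.32). The libraries are unstranded, so counts are uncertain where genes overlap in the RefSeq annotation: WIPI1 overlaps PRKAR1A and ARSG, SQSTM1 overlaps MGAT4B and MRNIP, CTSA overlaps PLTP, PPT1 overlaps CAP1, LIPA overlaps IFIT genes, NPC1 overlaps RMC1 and ATP6V1D overlaps GPHN. MAP1LC3B2, a near-identical copy of MAP1LC3B, had 10 to 57 counts.

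**Figure D1:**
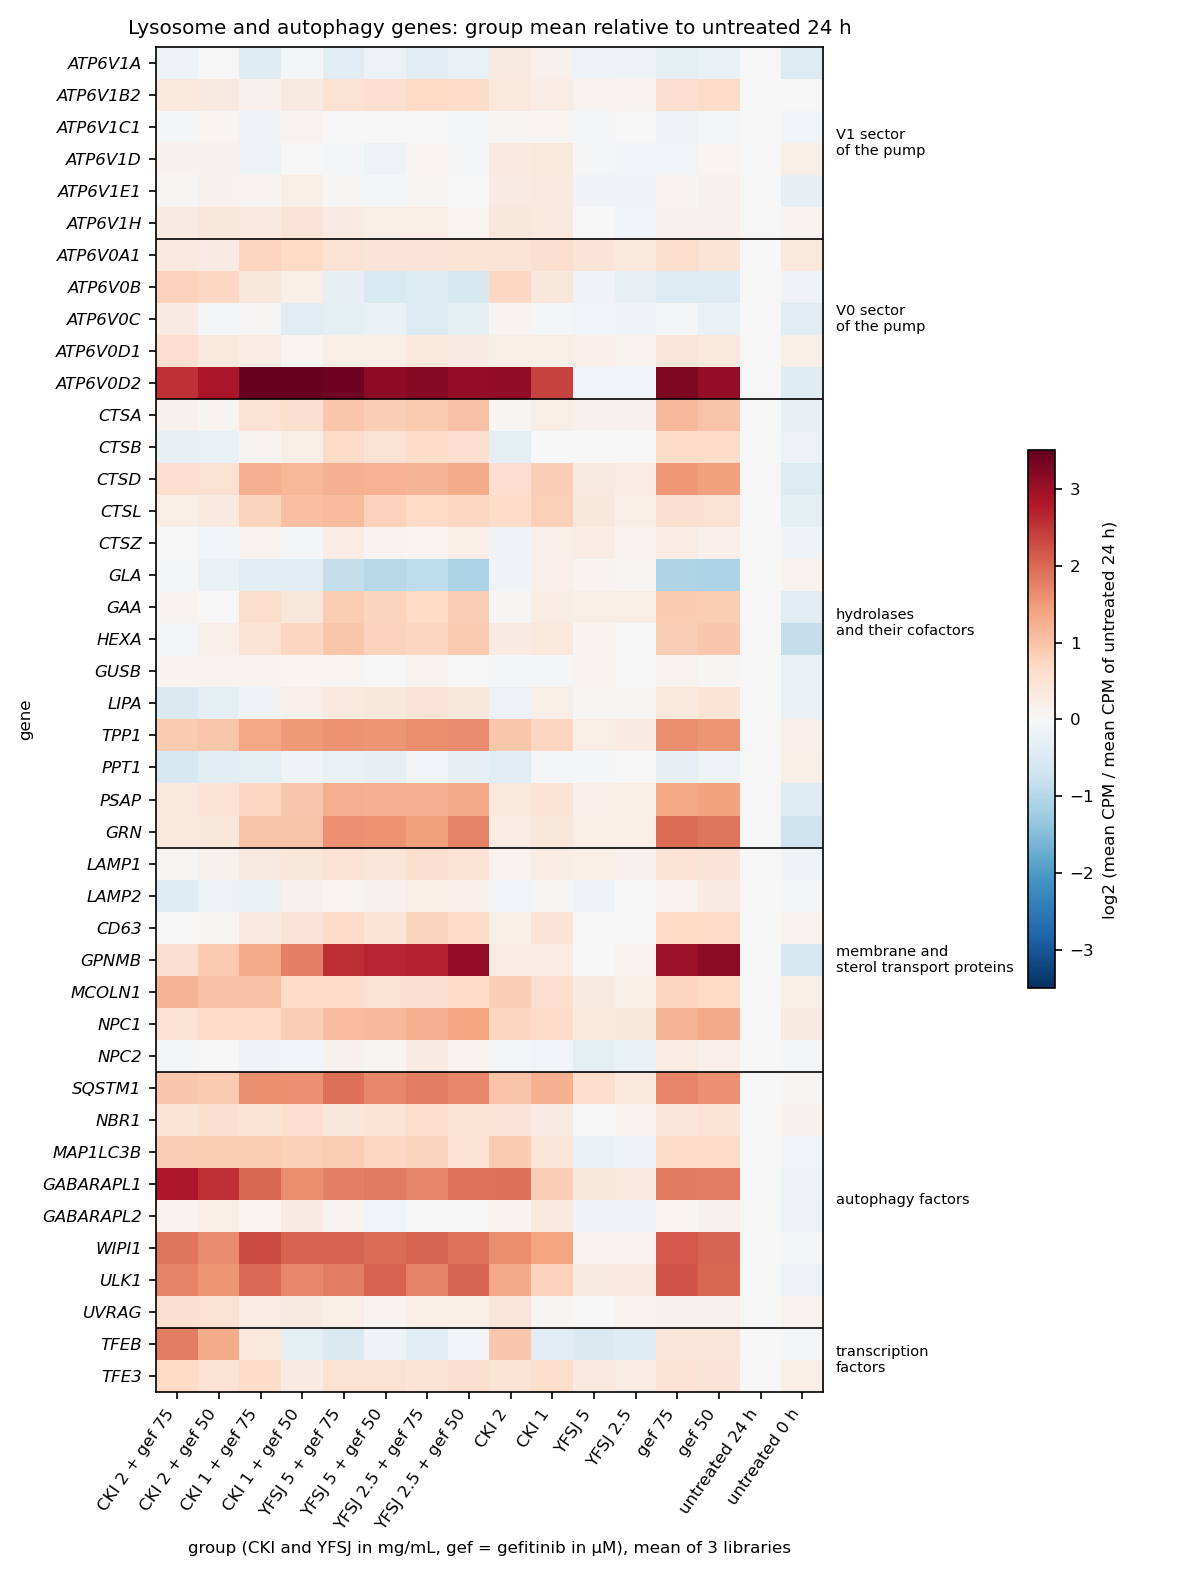
Each cell is the log2 ratio of a group's mean CPM (3 libraries) to the mean of untreated cells at 24 h, for the 42 genes that passed the filter, by class. ATP6V0D2 is raised in every group with gefitinib or CKI, GPNMB mainly where gefitinib is given alone or with YFSJ, and GLA is low in those same groups.

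Promoters were read from RefSeq (GRCh38.p14; the files' own build is hg19, so positions hold for GRCh38.p14 only), from 250 bases before to 50 bases after each start site. Of the 43 genes 33 were matched, with 50 start sites; the others were ATP6V1A, ATP6V1B2, ATP6V1C1, ATP6V1H, ATP6V0D2, CTSB, HEXA, PSAP, LAMP2 and UVRAG. The E-box CACGTG, which reads the same on both strands, was in 18% of these 50 windows, in 9.17% of the windows of all genes tested and in 7.26% of all 35116 windows. The longer TCACGTGA, the core of the element that TFEB and TFE3 bind and itself a form of CACGTG, was in 10% of these windows, in 1.54% of those of genes tested and in 0.98% of all. TGATGNAA on either strand, the composite element bound by ATF4, was in none of the 50, in 2.1% of those of genes tested and in 3.62% of all. By gene, CACGTG was found for 9 of the 33, among them 4 hydrolases, 3 membrane proteins and 2 pump subunits, and for no autophagy or transcription factor. A match is a run of letters and not a shown binding site.

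The 5 genes with TCACGTGA before the start are printed below to show the element, with ATP6V0B, which holds CACGTG and was called lower with gefitinib 75 µM (it was chosen after its values were seen). All 5 were called higher with gefitinib 75 µM, as were 27 of the 42 genes and 27.6% of all genes. So were 6 of 8 autophagy factors, with no CACGTG in any of their windows, and no link between motif and call was tested. Bases are those upstream of the start, 5′ to 3′ on the strand of the gene, and capitals mark each CACGTG.
ATP6V0D1: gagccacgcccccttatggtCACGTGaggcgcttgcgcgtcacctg
CTSA: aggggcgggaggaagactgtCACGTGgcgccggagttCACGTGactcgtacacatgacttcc
GAA: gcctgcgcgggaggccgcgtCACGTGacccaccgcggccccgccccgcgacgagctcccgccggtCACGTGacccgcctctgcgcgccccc
LAMP1: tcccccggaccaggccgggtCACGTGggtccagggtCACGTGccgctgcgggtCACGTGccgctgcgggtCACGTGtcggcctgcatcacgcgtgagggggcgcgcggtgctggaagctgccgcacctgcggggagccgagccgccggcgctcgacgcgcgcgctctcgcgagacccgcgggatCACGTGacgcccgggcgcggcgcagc
MCOLN1: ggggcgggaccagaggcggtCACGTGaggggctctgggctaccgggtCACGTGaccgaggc
ATP6V0B: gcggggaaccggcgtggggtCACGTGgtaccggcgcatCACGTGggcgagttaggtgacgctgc
In GRCh38.p14 these stretches are chr16:67481191-67481236 on the minus strand for ATP6V0D1, a V0 subunit, and on the plus strand chr20:45891273-45891334 for CTSA, chr17:80101485-80101575 for GAA, chr13:113297027-113297236 for LAMP1, chr19:7522563-7522623 for MCOLN1 and chr1:43974883-43974946 for ATP6V0B. GAA and MCOLN1 each hold TCACGTGA 2 times in the stretch. LAMP1 holds CACGTG 5 times, 1 of them within TCACGTGA, and the printed copy nearest the start site begins 28 bases before it; a further copy spans the start and is not printed.

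Gefitinib raised most of these genes. At 75 µM, 27 of the 42 were called higher and 4 lower against untreated cells at 24 h (edgeR, adjusted p under 0.05 over all genes), where 27.6% of all genes were called higher and 27.1% lower. The median log2 fold change was 0.54, beside 0.02 over all genes; errors of log2 fold changes are SE throughout. By class, 10 of 14 hydrolases were higher and 2 lower, as were 6 of 7 membrane proteins and 6 of 8 autophagy factors with none lower. The pump had 4 of 11 subunits higher (36.4%) and 2 lower (18.2%), near the shares of all genes, and a median of 0.09. At 50 µM, 27 were higher and 2 lower, beside 27.6% and 26.8% of all genes, with a median of 0.49. Between the 75 and 50 µM doses 0 of the 42 were called by edgeR or DESeq2 and 0 had an unadjusted p under 0.05, beside 0.0317% of all genes higher and 0% lower. The mitochondrial RNR2 gene held 0.674 to 0.886% of counts with gefitinib 75 µM, against 0.464 to 0.582% in untreated cells at 24 h. The summed epithelial markers were 3944 to 4271 CPM with gefitinib 75 µM, against 5502 to 6207 CPM untreated, and the summed lung markers, mostly KRT7, 2297 to 2509 CPM, against 1596 to 1937 CPM. None of these ranges overlapped, and their part in these results was not tested.

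Among pump subunits, ATP6V0D2, an isoform of the V0 stalk known from osteoclasts and macrophages, moved most. It had 23.2, 22.7 and 23.8 CPM with gefitinib 75 µM and 2.94, 2.77 and 1.52 CPM in untreated cells at 24 h. The groups were far apart (log2 fold change 3.27 ± 0.19 SE, edgeR adjusted p = 1.63e-19). ATP6V0A1, the membrane-spanning a1 subunit, had 37.2, 40.0 and 40.9 CPM with gefitinib 75 µM and 25.8, 24.7 and 26.3 CPM untreated, without overlap (log2 fold change 0.62 ± 0.10 SE, edgeR adjusted p = 1.05e-06). ATP6V1B2, a nucleotide-binding V1 subunit, had 97.9, 101 and 92.8 CPM with gefitinib 75 µM and 71.7, 59.1 and 62.0 CPM untreated, also without overlap (log2 fold change 0.60 ± 0.08 SE, edgeR adjusted p = 3.04e-08). Another V0 gene went down. ATP6V0B, a subunit of the proton-carrying ring, had 63.8, 56.3 and 57.8 CPM with gefitinib 75 µM and 78.3, 80.0 and 88.8 CPM untreated (log2 fold change -0.47 ± 0.09 SE, edgeR adjusted p = 8.04e-06), so that its 3 treated libraries lay below all untreated ones. ATP6V1A, the catalytic V1 subunit, had 53.4, 53.7 and 47.4 CPM with gefitinib 75 µM and 71.7, 62.8 and 60.0 CPM untreated (log2 fold change -0.33 ± 0.12 SE, edgeR adjusted p = 0.0184). That call was lost without gefitinib 75 µM library 3 (-0.28, adjusted p = 0.0912), without untreated 24 h library 1 (-0.25, adjusted p = 0.117) and with library totals alone as scaling (-0.24, adjusted p = 0.15). ATP6V0D1, the other isoform of the stalk subunit that ATP6V0D2 encodes, rose by 0.42 ± 0.08 on the log2 scale. ATP6V1C1, ATP6V1D, ATP6V1E1, ATP6V1H and ATP6V0C were not called.

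Among hydrolases and their cofactors, GRN had the largest rise. It had 2361, 2091 and 2387 CPM in gefitinib 75 µM libraries and 528, 585 and 667 CPM in untreated libraries at 24 h (log2 fold change 1.94 ± 0.24 SE, edgeR adjusted p = 1.71e-08). TPP1, a tripeptidyl peptidase, had 233, 236 and 236 CPM with gefitinib 75 µM and 78.1, 76.5 and 74.2 CPM untreated (log2 fold change 1.62 ± 0.07 SE, edgeR adjusted p = 9.4e-23). CTSD had 2579.5, 2278 and 2731 CPM with gefitinib 75 µM and 839.8, 796 and 1007 CPM untreated (log2 fold change 1.52 ± 0.16 SE, edgeR adjusted p = 2.08e-10). In all 3 genes the lowest treated library stood above the highest untreated one. PSAP rose by 1.36 ± 0.13 on the log2 scale, CTSA, a carboxypeptidase that also protects other hydrolases, by 1.12 ± 0.11, the acid glucosidase gene GAA by 0.92 ± 0.19 and HEXA, the hexosaminidase alpha chain, by 0.86 ± 0.16. The cysteine protease genes CTSB and CTSL rose by 0.64 ± 0.08 and 0.57 ± 0.12, and the acid lipase gene LIPA by 0.37 ± 0.10. GLA, alpha-galactosidase A, fell by more than any other of the 42. It had 24.5, 22.5 and 22.3 CPM in gefitinib 75 µM libraries and 51.1, 47.3 and 44.7 CPM in untreated libraries (log2 fold change -1.05 ± 0.11 SE, edgeR adjusted p = 1.64e-11), and at 50 µM its log2 fold change was -1.08 ± 0.11. PPT1, a thioesterase that removes fatty acids from proteins, had 91.1, 95.1 and 89.3 CPM with gefitinib 75 µM and 117, 107 and 109.9 CPM untreated (log2 fold change -0.28 ± 0.10 SE, edgeR adjusted p = 0.0116). The PPT1 call was lost without untreated 24 h library 1 (-0.24, adjusted p = 0.0572) and with library totals alone as scaling (-0.19, adjusted p = 0.0703). CTSZ and GUSB were not called.

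Among membrane proteins, GPNMB, a glycoprotein of melanosomes and lysosomes, had the largest rise. It had 228, 232 and 218 CPM with gefitinib 75 µM and 31.5, 27.3 and 26.6 CPM in untreated cells at 24 h (log2 fold change 2.99 ± 0.18 SE, edgeR adjusted p = 2.4e-17). NPC1, which exports cholesterol from the lysosome, had 186, 183 and 198 CPM with gefitinib 75 µM and 85.2, 77.9 and 85.5 CPM untreated (log2 fold change 1.19 ± 0.08 SE, edgeR adjusted p = 1.59e-16). MCOLN1, the lysosomal cation channel TRPML1, had 63.8, 55.1 and 65.5 CPM with gefitinib 75 µM and 32.0, 37.6 and 39.9 CPM untreated (log2 fold change 0.75 ± 0.12 SE, edgeR adjusted p = 6.43e-07). None of these groups overlapped. CD63 rose by 0.70 ± 0.08 on the log2 scale, LAMP1 by 0.49 ± 0.08 and NPC2 by 0.26 ± 0.08; the NPC2 call was lost without untreated 24 h library 1 (0.21, adjusted p = 0.0593). LAMP2 was not called at 75 µM (0.12 ± 0.09).

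Among autophagy factors ULK1, WIPI1 and GABARAPL1 rose most. ULK1, the kinase that starts autophagy, had 313, 296 and 337 CPM with gefitinib 75 µM and 62.0, 69.9 and 74.5 CPM in untreated cells at 24 h (log2 fold change 2.20 ± 0.17 SE, edgeR adjusted p = 2.05e-14). WIPI1, a lipid-binding protein of the growing membrane, had 35.6, 38.2 and 38.2 CPM with gefitinib 75 µM and 8.92, 8.50 and 7.87 CPM untreated (log2 fold change 2.14 ± 0.12 SE, edgeR adjusted p = 3.1e-20). GABARAPL1, of the LC3 and GABARAP family, had 39.0, 39.6 and 43.6 CPM with gefitinib 75 µM and 13.1, 9.66 and 11.7 CPM untreated (log2 fold change 1.82 ± 0.11 SE, edgeR adjusted p = 3.54e-18). Treated and untreated libraries did not overlap in any of the 3. The cargo receptor genes SQSTM1 and NBR1 rose by 1.70 ± 0.09 and 0.43 ± 0.09 on the log2 scale and MAP1LC3B, which encodes LC3B, by 0.65 ± 0.10. GABARAPL2 and UVRAG, a partner of the lipid kinase VPS34, were not called. The transcription factor TFE3 had 154, 141 and 162 CPM with gefitinib 75 µM and 96.3, 105 and 120.4 CPM untreated (log2 fold change 0.51 ± 0.10 SE, edgeR adjusted p = 3.78e-05), and at 50 µM its change was 0.45 ± 0.10 (edgeR adjusted p = 0.000232). TFEB had 17.2, 12.4 and 19.1 CPM with gefitinib 75 µM and 11.1, 11.4 and 13.8 CPM untreated, and these overlapped (log2 fold change 0.42 ± 0.18 SE, edgeR adjusted p = 0.0501). TFEB at 75 µM passed the threshold without gefitinib library 2 (0.58, adjusted p = 0.011), without untreated 24 h library 3 (0.52, adjusted p = 0.0328) and with DESeq2 (0.42, adjusted p = 0.0411). At 50 µM its change was 0.41 ± 0.18 (edgeR adjusted p = 0.0545), with an adjusted p of 0.046 in DESeq2.

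**Figure D2:**
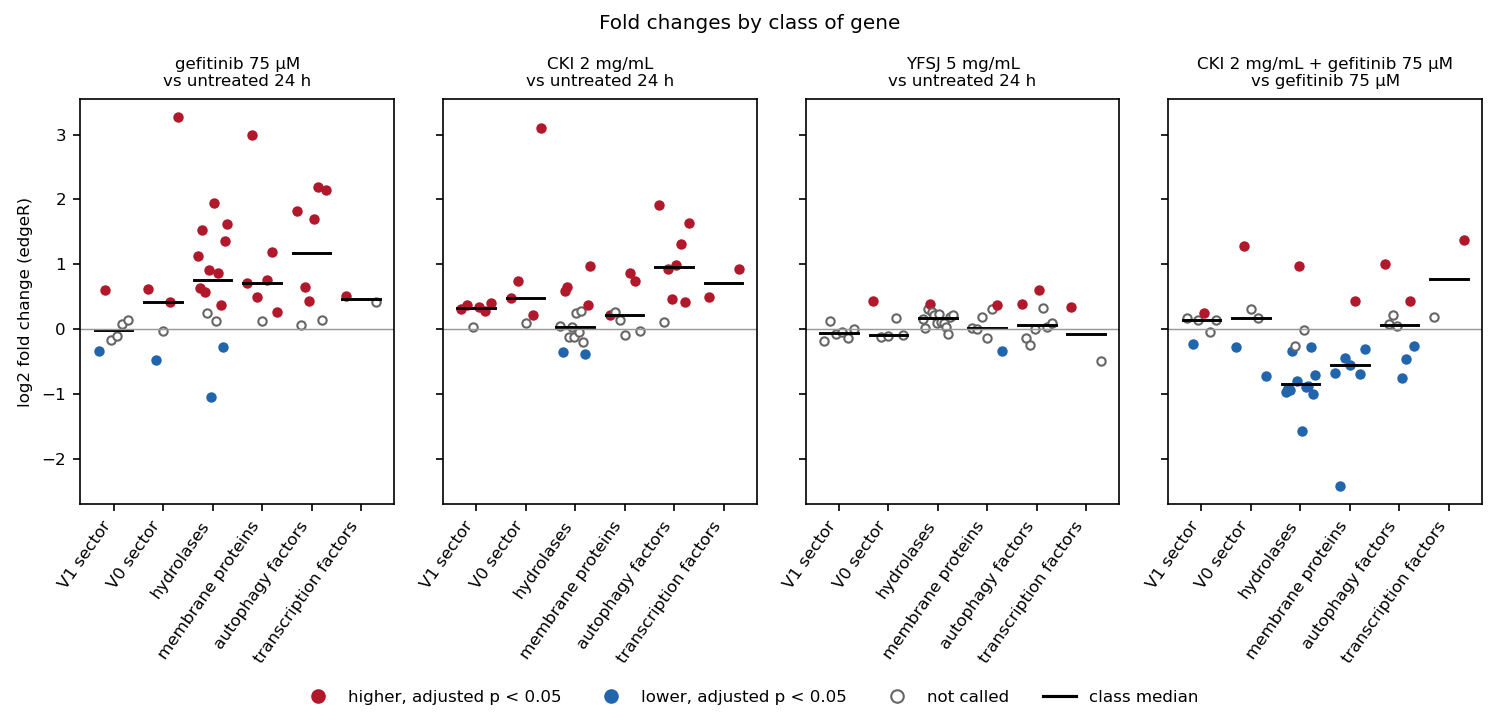
Each point is the edgeR log2 fold change of 1 gene, placed by class, in 4 comparisons; red points are called higher and blue points lower at adjusted p under 0.05, open points are not called, and bars are class medians. The hydrolase median is 0.75 with gefitinib 75 µM and 0.04 with CKI 2 mg/mL, and -0.85 when CKI 2 mg/mL is added to gefitinib 75 µM.

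CKI alone raised most of the pump subunits and autophagy factors among the 42 genes. At 2 mg/mL, 25 of the 42 genes were called higher and 2 lower against untreated cells at 24 h, beside 24.1% of all genes higher and 27.1% lower, and the median log2 fold change was 0.33 beside -0.01 over all genes. The pump had 9 of 11 subunits higher and none lower (median 0.34), and 7 of 8 autophagy factors were higher (median 0.96). The pump result did not extend to subunits outside the list. Of 12 other pump subunits tested, 1 (8.33%) was higher with CKI 2 mg/mL and 1 (8.33%) with CKI 1 mg/mL. Of 14 hydrolases 4 were higher (28.6%, near the share of all genes) and 2 lower, with a median of 0.04, and 3 of 7 membrane proteins were higher. At 1 mg/mL, 24 were higher, beside 13.2% of all genes, and 0 lower in edgeR and DESeq2, beside 14.7%, with 1 at an unadjusted p under 0.05 in that direction. There the pump had 8 of 11 higher, autophagy factors 7 of 8, hydrolases 4 of 14 and membrane proteins 4 of 7. Whether a class differed between CKI and gefitinib was not tested. RNR2 held 0.919 to 1.16% of counts with CKI 2 mg/mL, against 0.464 to 0.582% in untreated cells at 24 h, the summed epithelial markers 2260.1 to 2451 CPM, against 5502 to 6207 CPM, and the summed lung markers 809 to 869 CPM, against 1596 to 1937 CPM; the part of these in the results was not tested.

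ATP6V0D2 had 22.0, 19.6 and 20.7 CPM with CKI 2 mg/mL and 2.94, 2.77 and 1.52 CPM in untreated cells at 24 h (log2 fold change 3.10 ± 0.18 SE, edgeR adjusted p = 4.32e-18). ATP6V0B, which gefitinib lowered, had 137, 139.6 and 136 CPM with CKI 2 mg/mL and 78.3, 80.0 and 88.8 CPM untreated (log2 fold change 0.74 ± 0.08 SE, edgeR adjusted p = 8.53e-10), and all 3 CKI libraries stood above the untreated ones. ATP6V0A1 had 33.3, 38.8 and 35.3 CPM with CKI 2 mg/mL and 25.8, 24.7 and 26.3 CPM untreated (log2 fold change 0.48 ± 0.10 SE, edgeR adjusted p = 7.53e-05). Of the 6 V1 genes 5 were called higher, with log2 fold changes of 0.39 ± 0.10 for ATP6V1H, 0.37 ± 0.08 for ATP6V1B2, 0.34 ± 0.09 for ATP6V1D, 0.31 ± 0.12 for ATP6V1A and 0.28 ± 0.07 for ATP6V1E1. ATP6V1C1 was not called (log2 fold change 0.04 ± 0.09 SE, edgeR adjusted p = 0.757). The ATP6V1A call was lost without CKI 2 mg/mL library 1 (0.28, adjusted p = 0.0866) or 3 (0.26, adjusted p = 0.115) and without untreated 24 h library 2 (0.29, adjusted p = 0.078) or 3 (0.26, adjusted p = 0.114).

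The genes of the hydrolase class called higher with CKI 2 mg/mL were TPP1, CTSL, CTSD and PSAP. TPP1 had 146, 149 and 151 CPM with CKI 2 mg/mL and 78.1, 76.5 and 74.2 CPM in untreated cells at 24 h (log2 fold change 0.97 ± 0.07 SE, edgeR adjusted p = 7.29e-15). CTSL had 296, 292 and 274 CPM with CKI 2 mg/mL and 185, 171 and 190.4 CPM untreated (log2 fold change 0.66 ± 0.12 SE, edgeR adjusted p = 1.45e-05). CTSD had 1184, 1646 and 1123 CPM with CKI 2 mg/mL and 839.8, 796 and 1007 CPM untreated (log2 fold change 0.58 ± 0.16 SE, edgeR adjusted p = 0.00251); library 2 of the CKI group was the highest, and without it the change was 0.39 (adjusted p = 0.0532). The PSAP change of 0.37 ± 0.13 was lost without untreated 24 h library 2 (0.26, adjusted p = 0.126). CTSB, which gefitinib raised, had 347, 388 and 336 CPM with CKI 2 mg/mL and 454, 439 and 472 CPM untreated, and all CKI libraries lay below (log2 fold change -0.35 ± 0.08 SE, edgeR adjusted p = 0.000564). PPT1 had 86.8, 84.3 and 84.8 CPM with CKI 2 mg/mL and 117, 107 and 109.9 CPM untreated (log2 fold change -0.39 ± 0.10 SE, edgeR adjusted p = 0.00075). With library totals alone as scaling, CTSB (-0.15, adjusted p = 0.152) and PPT1 (-0.19, adjusted p = 0.0762) were not called. GRN, the gene of the hydrolase class raised most by gefitinib, was not called with CKI 2 mg/mL (0.25 ± 0.23). GPNMB was not called either, with 35.1, 34.9 and 32.5 CPM with CKI 2 mg/mL and 31.5, 27.3 and 26.6 CPM untreated (log2 fold change 0.26 ± 0.17 SE, edgeR adjusted p = 0.215).

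MCOLN1 had 64.0, 73.6 and 61.9 CPM with CKI 2 mg/mL and 32.0, 37.6 and 39.9 CPM in untreated cells at 24 h (log2 fold change 0.87 ± 0.12 SE, edgeR adjusted p = 4.5e-08). NPC1 had 142, 131 and 144 CPM with CKI 2 mg/mL and 85.2, 77.9 and 85.5 CPM untreated (log2 fold change 0.74 ± 0.08 SE, edgeR adjusted p = 3.23e-10). CD63 had 497, 498 and 457 CPM with CKI 2 mg/mL and 407, 420.3 and 427 CPM untreated (log2 fold change 0.21 ± 0.08 SE, edgeR adjusted p = 0.0314). The groups did not overlap in these 3 genes, though the small CD63 change missed the threshold without CKI library 1 (adjusted p = 0.0909) or 2 (0.0931) and without untreated 24 h library 1 (0.0931) or 2 (0.0612). Among autophagy factors GABARAPL1 had 45.5, 40.7 and 44.5 CPM with CKI 2 mg/mL and 13.1, 9.66 and 11.7 CPM untreated (log2 fold change 1.92 ± 0.11 SE, edgeR adjusted p = 2.43e-18). WIPI1 had 26.9, 27.1 and 24.3 CPM with CKI 2 mg/mL and 8.92, 8.50 and 7.87 CPM untreated (log2 fold change 1.63 ± 0.12 SE, edgeR adjusted p = 1.11e-15). ULK1 had 162, 182 and 171 CPM with CKI 2 mg/mL and 62.0, 69.9 and 74.5 CPM untreated (log2 fold change 1.32 ± 0.16 SE, edgeR adjusted p = 1.23e-08). SQSTM1, MAP1LC3B, NBR1 and UVRAG rose by 0.99 ± 0.09, 0.92 ± 0.10, 0.46 ± 0.09 and 0.41 ± 0.08 on the log2 scale.

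TFEB separated the CKI doses. It had 25.3, 23.1 and 21.1 CPM with CKI 2 mg/mL and 11.1, 11.4 and 13.8 CPM in untreated cells at 24 h (log2 fold change 0.93 ± 0.18 SE, edgeR adjusted p = 2.76e-05). With CKI 1 mg/mL it had 8.59, 11.5 and 7.31 CPM, and this group overlapped the untreated one (log2 fold change -0.41 ± 0.19 SE, edgeR adjusted p = 0.0982); without CKI 1 mg/mL library 2 the change was -0.61 (adjusted p = 0.0257). TFE3 had 140.4, 169 and 141 CPM with CKI 2 mg/mL and 96.3, 105 and 120.4 CPM untreated (log2 fold change 0.49 ± 0.10 SE, edgeR adjusted p = 7.97e-05), and its change at 1 mg/mL was 0.60 ± 0.10 (edgeR adjusted p = 8.49e-06).

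Between CKI 2 and 1 mg/mL, 8 genes (19%) were called higher and 7 (16.7%) lower at the higher dose. These shares were near those of all genes, 15.1% and 17.6%. With library totals alone as scaling 12 genes were higher and 1 lower, beside 3480 and 1499 of all 15789 genes. TFEB had 25.3, 23.1 and 21.1 CPM at 2 mg/mL and 8.59, 11.5 and 7.31 CPM at 1 mg/mL (log2 fold change 1.35 ± 0.18 SE, edgeR adjusted p = 2.26e-07). GABARAPL1 had 45.5, 40.7 and 44.5 CPM at 2 mg/mL and 21.8, 19.3 and 21.8 CPM at 1 mg/mL (log2 fold change 1.05 ± 0.11 SE, edgeR adjusted p = 2.59e-10). Every library at 2 mg/mL was above every library at 1 mg/mL for both. ATP6V0D2 had 22.0, 19.6 and 20.7 CPM at 2 mg/mL and 13.1, 11.6 and 12.7 CPM at 1 mg/mL (log2 fold change 0.74 ± 0.15 SE, edgeR adjusted p = 0.000161). ULK1 had 162, 182 and 171 CPM at 2 mg/mL and 108, 127 and 124 CPM at 1 mg/mL (log2 fold change 0.52 ± 0.16 SE, edgeR adjusted p = 0.0116), and was not called without CKI 1 mg/mL library 1 (0.45, adjusted p = 0.0612). These libraries did not overlap either. Of the other higher genes MAP1LC3B, UVRAG, ATP6V0B and TPP1 changed by 0.48 ± 0.10, 0.36 ± 0.08, 0.35 ± 0.08 and 0.21 ± 0.07 on the log2 scale. LIPA, CTSB, PPT1, GLA, SQSTM1, GABARAPL2 and CD63 were lower, between -0.42 for LIPA and -0.24 for CD63.

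**Figure D3:**
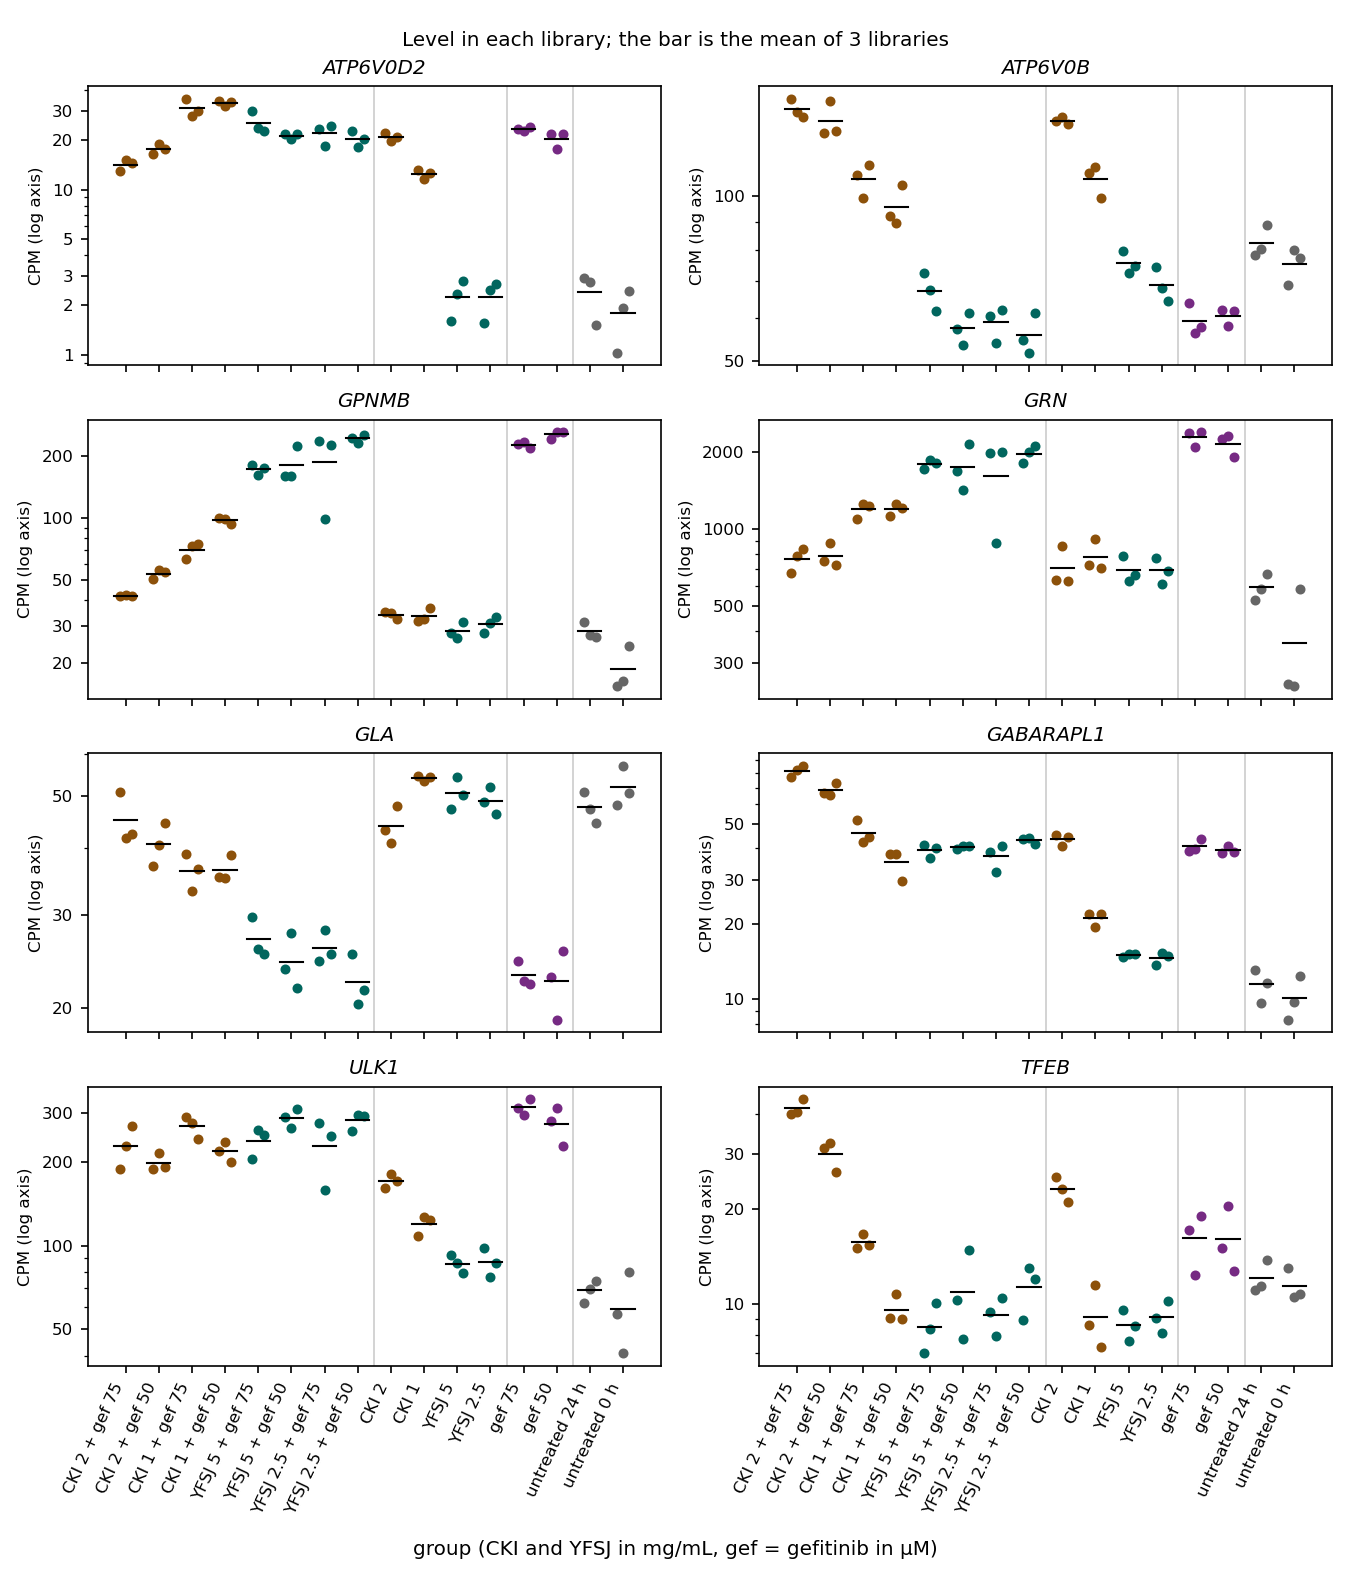
Each point is the CPM of 1 library on a log axis and each bar the mean of a group's 3 libraries, for 8 genes in all 16 groups; brown groups hold CKI, green YFSJ, purple gefitinib alone, grey are untreated. TFEB and ATP6V0B are highest with CKI 2 mg/mL and gefitinib 75 µM, where GPNMB had 41.9 to 42.6 CPM, against 218 to 232 CPM with gefitinib 75 µM alone.

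YFSJ alone changed few of these genes. At 5 mg/mL, 6 (14.3%) were called higher and 1 (2.38%) lower against untreated cells at 24 h, beside 4.28% and 2.2% of all genes. The median log2 fold change was 0.09. RNR2 held 0.323 to 0.384% of counts with YFSJ 5 mg/mL, against 0.464 to 0.582% untreated. The summed epithelial markers were 4205 to 5025 CPM, against 5502 to 6207 CPM, and the summed lung markers 1222 to 1399 CPM, against 1596 to 1937 CPM. The part of RNR2 and these markers was not tested. SQSTM1 had 697, 607 and 629 CPM with YFSJ 5 mg/mL and 405, 409.8 and 459 CPM untreated (log2 fold change 0.60 ± 0.08 SE, edgeR adjusted p = 3.55e-06). ATP6V0A1 had 36.6, 34.7 and 32.9 CPM with YFSJ 5 mg/mL and 25.8, 24.7 and 26.3 CPM untreated (log2 fold change 0.44 ± 0.10 SE, edgeR adjusted p = 0.00425). CTSL had 239, 237 and 239 CPM with YFSJ 5 mg/mL and 185, 171 and 190.4 CPM untreated (log2 fold change 0.39 ± 0.12 SE, edgeR adjusted p = 0.0437). These libraries did not overlap. GABARAPL1 had 14.8, 15.2 and 15.1 CPM with YFSJ 5 mg/mL and 13.1, 9.66 and 11.7 CPM untreated (log2 fold change 0.38 ± 0.12 SE, edgeR adjusted p = 0.0368), with all YFSJ libraries above. The CTSL call was lost without any 1 of the 6 libraries (adjusted p from 0.0615 to 0.186). That of GABARAPL1 was lost without any of 5 libraries, all but untreated 24 h library 1 (adjusted p from 0.0721 to 0.253). NPC1 rose by 0.37 ± 0.08 and TFE3 by 0.33 ± 0.10 on the log2 scale, with overlapping libraries for TFE3, and NPC2 fell to 63.7 ± 2.15 CPM in YFSJ 5 mg/mL libraries, against 80.3 ± 5.18 CPM in untreated libraries (SD, n = 3 each). TFEB had 9.60, 7.62 and 8.56 CPM with YFSJ 5 mg/mL and 11.1, 11.4 and 13.8 CPM untreated; the groups did not overlap, but TFEB was not called (log2 fold change -0.50 ± 0.19 SE, edgeR adjusted p = 0.106). Calls of TFE3 were lost without untreated 24 h library 1 (adjusted p = 0.206) or 2 (0.142) and without YFSJ 5 mg/mL library 1 (0.244) or 3 (0.0948), and that of NPC2 without untreated 24 h library 2 (0.0725) or YFSJ 5 mg/mL library 1 (0.0616).

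At 2.5 mg/mL YFSJ, 4 genes (9.52%) were called higher and 0 lower, beside 2.01% and 0.918% of all genes. DESeq2 also called 0 lower, and 3 were lower at an unadjusted p under 0.05. NPC1 had 104, 107 and 114 CPM with YFSJ 2.5 mg/mL and 85.2, 77.9 and 85.5 CPM untreated (log2 fold change 0.39 ± 0.08 SE, edgeR adjusted p = 0.00367). SQSTM1 had 579, 513 and 561 CPM with YFSJ 2.5 mg/mL and 405, 409.8 and 459 CPM untreated (log2 fold change 0.38 ± 0.08 SE, edgeR adjusted p = 0.00673). ATP6V0A1 had 34.1, 31.8 and 32.8 CPM with YFSJ 2.5 mg/mL and 25.8, 24.7 and 26.3 CPM untreated (log2 fold change 0.36 ± 0.10 SE, edgeR adjusted p = 0.0348). All YFSJ libraries were above the untreated ones. TPP1 had 93.4, 94.0 and 92.3 CPM with YFSJ 2.5 mg/mL and 78.1, 76.5 and 74.2 CPM untreated (log2 fold change 0.29 ± 0.07 SE, edgeR adjusted p = 0.0178), also without overlap. All 3 YFSJ 2.5 mg/mL libraries held ALB counts, and with a term for such libraries 0 of the 42 were called. Over all genes that term took the calls from 318 higher and 145 lower to 31 and 17. This group has no library free of ALB counts, so the term was estimated from other groups only. The 4 calls became 0 without untreated 24 h library 2, to 1 without YFSJ 2.5 mg/mL library 1, and to 2 without untreated 24 h library 1 or 3 or YFSJ 2.5 mg/mL library 2 or 3. TFEB and TFE3 were not called (-0.41 ± 0.19 and 0.26 ± 0.10). Between YFSJ 5 and 2.5 mg/mL 0 genes were called by edgeR or DESeq2, beside 0.019% of all genes higher and 0.355% lower, and 1 had an unadjusted p under 0.05.

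Adding CKI to gefitinib lowered hydrolase and membrane genes. With CKI 2 mg/mL and gefitinib 75 µM, 7 of the 42 genes were called higher and 23 lower than with gefitinib 75 µM alone, beside 28.8% of all genes higher and 29.4% lower, and the median log2 fold change was -0.27 beside -0.01 over all genes. Of 14 hydrolases 11 were lower and 1 higher (median -0.85), and of 7 membrane proteins 6 were lower and 1 higher (median -0.55). The pump had 2 higher and 3 lower, and autophagy factors 2 higher and 3 lower, with medians of 0.14 and 0.06. All 3 combination libraries held ALB counts, and with a term for such libraries 6 genes were higher and 18 lower. Over all genes that term took the calls from 4549 higher and 4641 lower to 3433 and 3478. With library totals alone as scaling 10 of the 42 were higher and 20 lower, beside 4890 and 4177 of all 15789 genes. RNR2 held 1.39 to 1.56% of counts in the combination, against 0.674 to 0.886% with gefitinib 75 µM alone, and the summed epithelial markers were 3055 to 3158 CPM, against 3944 to 4271 CPM. RNR2 and these markers also stood apart in the other 3 pairs of doses, where their values follow. The summed lung markers were 913 to 1014 CPM here and 800 to 1002.5 CPM with CKI 1 mg/mL and gefitinib 75 µM. With gefitinib 75 µM alone they were 2297 to 2509 CPM. With gefitinib 50 µM alone they were 2233 to 2444 CPM. With CKI 2 mg/mL added to 50 µM they were 905 to 973 CPM, and with CKI 1 mg/mL 982 to 1125 CPM. The part of RNR2 and all these markers in the results was not tested.

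GPNMB had 42.3, 42.6 and 41.9 CPM with CKI 2 mg/mL and gefitinib 75 µM and 228, 232 and 218 CPM with gefitinib 75 µM alone (log2 fold change -2.42 ± 0.17 SE, edgeR adjusted p = 9.44e-15). GRN had 677, 783 and 841 CPM in the combination and 2361, 2091 and 2387 CPM with gefitinib 75 µM alone (log2 fold change -1.57 ± 0.24 SE, edgeR adjusted p = 8.17e-07). The combination libraries of both genes lay far below those of gefitinib alone. PSAP, CTSA, CTSD, CTSB, HEXA, LIPA and GAA fell by between 1.00 (PSAP) and 0.81 (GAA) on the log2 scale, and TPP1, NPC1 and CD63 changed by -0.71 ± 0.07, -0.69 ± 0.08 and -0.68 ± 0.08. TFEB went the other way, with 40.3, 40.8 and 44.7 CPM in the combination and 17.2, 12.4 and 19.1 CPM with gefitinib 75 µM alone (log2 fold change 1.37 ± 0.17 SE, edgeR adjusted p = 8.33e-09). ATP6V0B had 151, 143 and 139.8 CPM in the combination and 63.8, 56.3 and 57.8 CPM with gefitinib 75 µM alone (log2 fold change 1.28 ± 0.09 SE, edgeR adjusted p = 1.28e-16). GABARAPL1 also rose, to 81.6 ± 4.40 CPM in the combination, against 40.7 ± 2.49 CPM with gefitinib 75 µM alone (SD, n = 3 each), and GLA to 45.1 ± 5.12 CPM, against 23.1 ± 1.26 CPM. MCOLN1, UVRAG and ATP6V1D were the other genes called higher. TFE3 was not called (0.19 ± 0.10).

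Several smaller calls were lost with the ALB term. No library of this combination was free of ALB counts, so the term was estimated from other groups only. The log2 change of ATP6V0D2 was -0.72 ± 0.15, against -0.49 with the term (adjusted p = 0.0514). That of ULK1 was -0.46 ± 0.16, against -0.29 with the term (adjusted p = 0.318), and that of WIPI1 was -0.27 ± 0.10, against -0.03 (adjusted p = 0.892). ATP6V0A1 (adjusted p = 0.161), CTSL (0.0591) and ATP6V1D (0.178) were not called with the term either. WIPI1 had 50.0 CPM in library 1 of CKI 1 mg/mL with gefitinib 75 µM, which held no such counts. Libraries 2 and 3 of that group, which did, had 36.8 and 36.8 CPM. In CKI 2 mg/mL with gefitinib 50 µM, WIPI1 had 26.8 and 25.9 CPM in the ALB libraries and 26.6 CPM in the other.

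With CKI 2 mg/mL and gefitinib 50 µM, 8 genes were higher and 18 lower than with gefitinib 50 µM alone, beside 26.6% and 27.1% of all genes. RNR2 held 1.13 to 1.32% of counts in the combination, against 0.655 to 0.868% with gefitinib 50 µM alone, and the summed epithelial markers were 2587 to 2777 CPM, against 4102 to 4736 CPM. GPNMB had 50.7, 56.0 and 54.7 CPM in the combination and 242, 259.7 and 259.6 CPM with gefitinib 50 µM alone (log2 fold change -2.24 ± 0.17 SE, edgeR adjusted p = 8.06e-14). GRN had 752, 885 and 725 CPM in the combination and 2239, 2312 and 1910.5 CPM alone (log2 fold change -1.45 ± 0.24 SE, edgeR adjusted p = 3.59e-06). Both genes were lower in every combination library than in any library of gefitinib alone. ATP6V0B had 131, 149 and 132 CPM in the combination and 62.0, 58.0 and 61.7 CPM alone (log2 fold change 1.18 ± 0.09 SE, edgeR adjusted p = 2.29e-15), without overlap. PSAP had 1321, 1496 and 1443 CPM in the combination and 2674, 2565 and 2774 CPM alone (log2 fold change -0.91 ± 0.13 SE, edgeR adjusted p = 8.32e-08), and all combination libraries were lower. Libraries 1 and 3 of the combination held ALB counts. Without them 6 genes were higher and 16 lower, in a fit chosen after the data were seen that leaves library 2 alone in this group, assumed to vary like the other groups.

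At CKI 1 mg/mL the numbers were smaller. With gefitinib 75 µM, 3 genes were higher and 12 lower than with gefitinib 75 µM alone, beside 17.3% and 17.3% of all genes. With library totals alone as scaling 9 were higher and 10 lower, beside 3793 and 1873 of all 15789 genes. RNR2 held 1.04 to 1.09% of counts in the combination, against 0.674 to 0.886% with gefitinib 75 µM alone, and the summed epithelial markers were 1779 to 2100.0 CPM, against 3944 to 4271 CPM. GPNMB had 63.1, 73.2 and 75.1 CPM in the combination and 228, 232 and 218 CPM with gefitinib 75 µM alone (log2 fold change -1.68 ± 0.17 SE, edgeR adjusted p = 3.1e-10). GRN had 1097, 1253 and 1235 CPM in the combination and 2361, 2091 and 2387 CPM alone (log2 fold change -0.93 ± 0.23 SE, edgeR adjusted p = 0.002). The combination libraries were lower than all of gefitinib alone in both. ATP6V0B had 109, 99.6 and 114 CPM in the combination and 63.8, 56.3 and 57.8 CPM alone (log2 fold change 0.86 ± 0.09 SE, edgeR adjusted p = 8.35e-11). GLA had 38.9, 33.2 and 36.5 CPM in the combination and 24.5, 22.5 and 22.3 CPM alone (log2 fold change 0.65 ± 0.11 SE, edgeR adjusted p = 3.66e-06). The combination libraries were higher than all of gefitinib alone in these, which gefitinib 75 µM alone had lowered. Without the 2 ALB libraries of this combination 5 genes were higher and 11 lower, again in a fit chosen after the data were seen and with 1 library (library 1) left in the group, assumed to vary like the others.

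With CKI 1 mg/mL and gefitinib 50 µM, 5 genes were higher and 13 lower than with gefitinib 50 µM alone, beside 15.5% and 16.2% of all genes. With library totals alone as scaling 10 were higher and 7 lower, beside 4021 and 1641 of all 15789 genes. RNR2 held 1.02 to 1.20% of counts in the combination, against 0.655 to 0.868% with gefitinib 50 µM alone, and the summed epithelial markers were 1970 to 2097 CPM, against 4102 to 4736 CPM. GPNMB had 99.8, 98.6 and 93.9 CPM in the combination and 242, 259.7 and 259.6 CPM with gefitinib 50 µM alone (log2 fold change -1.38 ± 0.17 SE, edgeR adjusted p = 2.75e-08). GRN had 1125, 1254 and 1207 CPM in the combination and 2239, 2312 and 1910.5 CPM alone (log2 fold change -0.85 ± 0.23 SE, edgeR adjusted p = 0.00517). Neither gene overlapped between the groups. TFEB, which CKI 2 mg/mL raised, had 9.04, 10.8 and 9.01 CPM in this combination and 15.1, 20.5 and 12.8 CPM alone (log2 fold change -0.75 ± 0.18 SE, edgeR adjusted p = 0.00142). ATP6V0D2 had 34.2, 31.8 and 33.7 CPM in the combination and 21.7, 17.5 and 21.8 CPM alone (log2 fold change 0.71 ± 0.14 SE, edgeR adjusted p = 0.000148), its highest group mean of the 16. These genes did not overlap either. GABARAPL1 and ULK1 were not called at CKI 1 mg/mL with either gefitinib dose.

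The interaction of CKI and gefitinib, taken as the combined change less the change with each agent and averaged over the 4 pairs of doses, was negative and called for 30 of the 42 genes and positive for 2, beside 19.5% and 20% of all genes. The median was -0.49 beside -0.00075 over all genes. A negative value is a smaller rise, or a larger fall, with both agents than the sum of the log2 changes with each. It was called negative for all 7 membrane proteins, 10 of 14 hydrolases, 6 of 8 autophagy factors and 6 of 11 pump subunits. The largest were ATP6V0D2 (-2.68 ± 0.19, edgeR adjusted p = 1.38e-15), GPNMB (-2.18 ± 0.19, adjusted p = 1.81e-12), WIPI1 (-1.63 ± 0.12, adjusted p = 3.61e-15) and GRN (-1.52 ± 0.25, adjusted p = 8.16e-06). They differ in kind: WIPI1 had 31.0 ± 2.52 CPM in the combination of CKI 2 mg/mL and gefitinib 75 µM, 26.1 ± 1.54 CPM with CKI 2 mg/mL, 37.3 ± 1.53 CPM with gefitinib 75 µM and 8.43 ± 0.53 CPM untreated (SD, n = 3 each), each agent raising it alone. GPNMB had 42.2 ± 0.33 CPM in that combination, 34.2 ± 1.48 CPM with CKI, 226 ± 7.16 CPM with gefitinib and 28.5 ± 2.62 CPM untreated. The 2 positive genes were GLA (0.76 ± 0.11, adjusted p = 2.09e-07) and ATP6V0B (0.43 ± 0.09, adjusted p = 0.000118), both called lower with gefitinib 75 µM alone.

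Adding YFSJ to gefitinib left nearly all of these genes uncalled. With YFSJ 5 mg/mL and gefitinib 75 µM, 1 gene was higher and 1 lower than with gefitinib 75 µM alone, beside 1.79% and 1.67% of all genes. With library totals alone as scaling 2 were higher and 1 lower, beside 286 and 246 of all 15789 genes. CTSL had 415, 361 and 401 CPM in the combination and 262, 273 and 277 CPM with gefitinib 75 µM alone (log2 fold change 0.54 ± 0.12 SE, edgeR adjusted p = 0.00464). TFEB had 7.0, 8.33 and 10.1 CPM in the combination and 17.2, 12.4 and 19.1 CPM alone (log2 fold change -0.94 ± 0.19 SE, edgeR adjusted p = 0.00172). With YFSJ 2.5 mg/mL and gefitinib 75 µM, TFEB was the 1 gene called, with 9.48, 7.91 and 10.4 CPM in the combination and 17.2, 12.4 and 19.1 CPM alone (log2 fold change -0.80 ± 0.19 SE, edgeR adjusted p = 0.0193), and 0 were higher in edgeR or DESeq2, with 2 at an unadjusted p under 0.05, beside 0.994% of all genes higher and 0.836% lower. This TFEB call was lost without gefitinib 75 µM library 1 (-0.76, adjusted p = 0.0859) or 3 (-0.67, adjusted p = 0.142) and without library 2 of the combination (-0.70, adjusted p = 0.214). In that library 2 GPNMB had 99.4 CPM, against 236 and 225 CPM in the other libraries of its group, and GRN 882 CPM, against 1975 and 1997 CPM. With gefitinib 50 µM, 0 genes were called by edgeR or DESeq2 at either YFSJ dose. For YFSJ 5 mg/mL the shares of all genes were 0.532% higher and 0.405% lower, and 1 gene was higher and 8 lower at an unadjusted p under 0.05; without library 3 of this combination 2 genes were called, both lower. For YFSJ 2.5 mg/mL the shares were 0.0633% and 0.0253%, with 0 and 1 at an unadjusted p under 0.05.

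The interaction of YFSJ and gefitinib was called negative for 3 genes and positive for 0 (0 also in DESeq2, 3 at an unadjusted p under 0.05), beside 1.05% and 0.646% of all genes. These were ATP6V0A1 (-0.47 ± 0.11, edgeR adjusted p = 0.0122), NPC1 (-0.43 ± 0.09, adjusted p = 0.0039) and SQSTM1 (-0.36 ± 0.09, adjusted p = 0.0242), each of which YFSJ raised alone. NPC1 averaged 175 ± 4.41 CPM with YFSJ 5 mg/mL and gefitinib 75 µM, 107 ± 4.03 CPM with YFSJ 5 mg/mL, 189 ± 8.03 CPM with gefitinib 75 µM and 82.8 ± 4.28 CPM untreated (SD, n = 3 each). The SQSTM1 call was lost in 5 of the fits that left out 1 library (gefitinib 50 µM library 2, untreated 24 h library 1 or 2, YFSJ 2.5 mg/mL library 1, YFSJ 5 mg/mL library 1; adjusted p from 0.0521 to 0.132), and that of ATP6V0A1 without untreated 24 h library 2 (0.0779).

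In untreated cells 8 genes were called higher and 3 lower at 24 h than at 0 h, beside 10.8% and 14.4% of all genes. With library totals alone as scaling 12 were higher and 2 lower, beside 2364 and 1447 of all 15789 genes. HEXA had 51.6, 47.5 and 50.0 CPM at 24 h and 19.9, 20.3 and 43.5 CPM at 0 h (log2 fold change 0.82 ± 0.16 SE, edgeR adjusted p = 0.000366). GRN had 528, 585 and 667 CPM at 24 h and 249, 245 and 587 CPM at 0 h, with overlap (log2 fold change 0.72 ± 0.23 SE, edgeR adjusted p = 0.0222). GPNMB had 31.5, 27.3 and 26.6 CPM at 24 h and 15.4, 16.3 and 24.1 CPM at 0 h (log2 fold change 0.61 ± 0.18 SE, edgeR adjusted p = 0.0122). ATP6V1A had 71.7, 62.8 and 60.0 CPM at 24 h and 35.7, 45.2 and 58.1 CPM at 0 h (log2 fold change 0.48 ± 0.12 SE, edgeR adjusted p = 0.0034). In HEXA, GRN and GPNMB libraries 1 and 2 at 0 h were low and library 3 lay near the 24 h libraries; libraries 1 and 2 also held 1.22 and 1.69% of counts in RNR2, against 0.457% in library 3, and the part of this in the calls was not tested. With library 3 as the only 0 h library, assumed to vary like the other groups, 0 of the 42 were called; a group of 1 library has no spread of its own. Without 0 h library 1, 2 or 3 in turn, 1, 5 and 25 genes were called, and 0 in a fit of these 6 libraries alone.

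The wider set of 115 other lysosome and autophagy genes was counted by the same classes. Of 112 that passed the filter, 61 (54.5%) were higher and 16 (14.3%) lower with gefitinib 75 µM, beside 27.6% and 27.1% of all genes. With gefitinib 50 µM 59 (52.7%) were higher and 14 (12.5%) lower, beside 27.6% and 26.8%. CKI 2 mg/mL gave 40 higher (35.7%) and 18 lower (16.1%), beside 24.1% and 27.1%, and CKI 1 mg/mL 33 (29.5%) and 7 (6.25%), beside 13.2% and 14.7%. With YFSJ 5 mg/mL 10 were higher (8.93%) and 3 lower (2.68%), beside 4.28% and 2.2%. With YFSJ 2.5 mg/mL the 3 higher (2.68%) and 2 lower (1.79%) were near the shares of all genes, 2.01% and 0.918%. Of 34 hydrolases 28 (82.4%) were higher and 3 (8.82%) lower with gefitinib 75 µM. With CKI 2 mg/mL 9 (26.5%) were higher and 8 (23.5%) lower, near the 24.1% and 27.1% of all genes. Of 21 membrane proteins 13 (61.9%) were higher and 2 (9.52%) lower with gefitinib 75 µM, beside 27.6% and 27.1% of all genes. With CKI 2 mg/mL 11 of these 21 (52.4%) were higher and 3 (14.3%) lower, beside 24.1% and 27.1%. With CKI 1 mg/mL they were 11 (52.4%) and 2 (9.52%), beside 13.2% and 14.7%. Of 43 autophagy factors 17 (39.5%) were higher and 9 (20.9%) lower with gefitinib 75 µM, beside 27.6% and 27.1% of all genes, and 19 (44.2%) and 7 (16.3%) with CKI 2 mg/mL, beside 24.1% and 27.1%. Of 12 other pump subunits 3 (25%) were higher and 1 (8.33%) lower with gefitinib 75 µM, beside 27.6% and 27.1% of all genes. With CKI 2 mg/mL 1 of these 12 subunits (8.33%) was higher, below the share of all genes.

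Among these, the largest rises called without overlap with gefitinib 75 µM were ATG9B, an autophagy lipid scramblase, at 63.9 ± 7.48 CPM with gefitinib and 10.3 ± 3.62 CPM untreated (log2 fold change 2.65 ± 0.37 SE, edgeR adjusted p = 2.33e-07), LAMP3 at 5.17 ± 0.70 CPM and 0.92 ± 0.05 CPM (log2 fold change 2.48 ± 0.23 SE, edgeR adjusted p = 1.31e-12), and SLC17A5, the lysosomal sialic acid exporter, at 20.3 ± 2.33 CPM and 4.50 ± 0.15 CPM (log2 fold change 2.17 ± 0.13 SE, edgeR adjusted p = 7.17e-19; SD, n = 3 each). The largest falls of this kind were LAPTM5, at 0.39 ± 0.14 CPM with gefitinib 75 µM and 2.32 ± 0.26 CPM untreated (log2 fold change -2.54 ± 0.35 SE, edgeR adjusted p = 4.57e-08), and the protease genes CTSC, at 83.9 ± 0.56 CPM and 202 ± 12.9 CPM (log2 fold change -1.27 ± 0.09 SE, edgeR adjusted p = 4.34e-16), and CTSV, at 12.6 ± 0.59 CPM and 27.3 ± 0.30 CPM (log2 fold change -1.12 ± 0.16 SE, edgeR adjusted p = 5.61e-08). With CKI 2 mg/mL the largest rises called without overlap were LAMP3, at 4.81 ± 0.56 CPM with CKI and 0.92 ± 0.05 CPM untreated (log2 fold change 2.38 ± 0.23 SE, edgeR adjusted p = 6.32e-12), SLC17A5, at 14.9 ± 1.31 CPM and 4.50 ± 0.15 CPM (log2 fold change 1.73 ± 0.13 SE, edgeR adjusted p = 4.88e-15), and IDUA, a glycosaminoglycan hydrolase, at 28.4 ± 9.71 CPM and 14.6 ± 4.22 CPM (log2 fold change 0.98 ± 0.40 SE, edgeR adjusted p = 0.0416). The largest falls called without overlap were LAPTM5, at 0.69 ± 0.18 CPM with CKI 2 mg/mL and 2.32 ± 0.26 CPM untreated (log2 fold change -1.70 ± 0.30 SE, edgeR adjusted p = 8.71e-06), the conjugation enzyme gene ATG7, at 28.5 ± 1.30 CPM and 46.1 ± 4.57 CPM (log2 fold change -0.70 ± 0.11 SE, edgeR adjusted p = 6.35e-07), and VAMP8, of the fusion machinery, at 56.7 ± 3.73 CPM and 90.0 ± 5.99 CPM (log2 fold change -0.67 ± 0.09 SE, edgeR adjusted p = 8.09e-08).

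**Figure D4:**
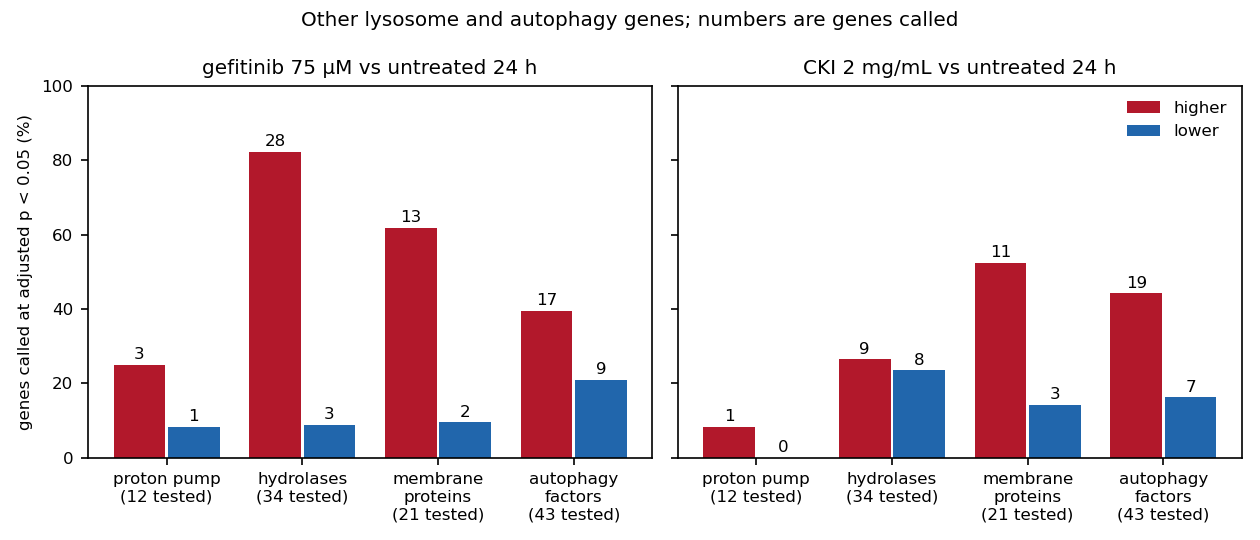
Bars give the percentage of the other lysosome and autophagy genes of each class called higher (red) or lower (blue) at adjusted p under 0.05, with the number of genes above each bar, for gefitinib 75 µM and CKI 2 mg/mL against untreated cells at 24 h. Of the 34 hydrolases 28 are higher with gefitinib 75 µM, and with CKI 2 mg/mL 9 are higher and 8 lower, near the shares of all genes.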

How the data were processed

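RNA-seq was measured in 48 libraries of H1975 cells. The authors deposited raw read counts per gene symbol for 27978 symbols. Reads were trimmed with Trim Galore 0.4.2 and aligned with STAR 2.5.3a to hg19, per the submitters' processing notes, which also name edgeR; the counting tool, its annotation and its strand setting are not given in the sources used here, and the libraries are unstranded per the labels. From these counts edgeR 4.0.16 (R 4.3.3, limma 3.58.1) gave quasi-likelihood tests with TMM scaling, filterByExpr (minimum count 10, minimum total 15, leaving 15789 genes), robust fitting, a separate mean for each group (32 residual degrees of freedom). Adjusted p is Benjamini-Hochberg over all 15789 genes, a gene is called at adjusted p under 0.05, and SE is the log2 fold change divided by the square root of F. The fit was also run on counts simulated with its own dispersions, with a small share of genes changed in the gefitinib 75 µM group. That run cannot test calls or scaling where a large share of genes changes. CPM uses TMM-scaled totals, and levels between genes were divided by transcript length (longest GENCODE protein-coding transcript). DESeq2 1.42.0 and other scalings, filters, thresholds, terms and left-out libraries were alternatives. Named genes are the 3 largest called changes without overlap per class with gefitinib 75 µM and CKI 2 mg/mL, all genes called lower there, and up to 4 in the other comparisons. The genes, lists and rules were chosen with earlier results of these data known.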

Additional observations from a re-analysis of the deposited data

Results flagged for a closer look

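Of the genes named for the interactions, 9 had an effect of gefitinib that differed with a second agent by the test of the difference itself (edgeR quasi-likelihood, adjusted p under 0.05); groups of 3 are too small for a test of single outlying libraries. For CKI with gefitinib the interaction on the log2 scale was -2.684 for ATP6V0D2, -2.183 for GPNMB, -1.635 for WIPI1 and -1.525 for GRN, and it was 0.7563 for GLA and 0.434 for ATP6V0B. For YFSJ with gefitinib it was -0.4674 for ATP6V0A1, -0.4304 for NPC1 and -0.3629 for SQSTM1.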

How the results depend on the processing

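The 281 values checked were every call of the main fit, with TFEB and TFE3 in each comparison of a single agent with untreated cells. Nearly all could therefore keep or lose a call but not gain one, and uncalled genes were not checked. Of these values 279 kept their direction and side of the threshold with relative log expression factors and with DESeq2. The number was 254 with library-size scaling, 267 with no filter on low counts and 266 with a term for the ALB libraries. It was 262 with only the libraries compared and 232 at adjusted p under 0.01. Of 2421 such values with 1 library left out, 2262 kept direction and side, 154 lost the threshold, 5 gained it and 0 reversed. Library-size scaling moved the median of all genes by 0.102 to 0.198 in 6 comparisons (gefitinib 50 µM, CKI 2 mg/mL, CKI 2 against 1 mg/mL, CKI 1 mg/mL with either gefitinib dose, CKI 2 mg/mL with gefitinib 50 µM) and by at most 0.0927 in the others, so calls that turn on it are relative to that shift; for CKI 2 mg/mL it gave 5625 of all genes higher and 2532 lower, against 3807 and 4279, and 30 and 0 of the 42. Counts of genes called that moved by over 1.5 times follow; the cause was not tested. At adjusted p under 0.01 they were 6 for untreated 24 h against 0 h, 2 for YFSJ 2.5 mg/mL, 3 for YFSJ 5 mg/mL, 0 for YFSJ 2.5 mg/mL with gefitinib 75 µM, 9 for CKI 2 against 1 mg/mL and 1 for the YFSJ interaction. YFSJ 2.5 mg/mL had 2 with no filter and 0 with the ALB term, and the YFSJ interaction 6 with DESeq2. With only the libraries compared there were 0 for 24 h against 0 h, 0 for YFSJ 2.5 mg/mL with gefitinib 75 µM and 6 for YFSJ 5 mg/mL with gefitinib 75 µM. With library 3 as the only 0 h library, assumed to vary like the other groups, there were 0, and CTSL (-0.1223), PSAP (-0.0616) and GRN (-0.001432, about 0) changed sign, none of them called. Leaving out 1 library gave 1 to 25 for 24 h against 0 h, 0 to 2 for YFSJ 2.5 mg/mL, 3 to 5 for YFSJ 5 mg/mL, 1 to 5 for the YFSJ interaction, 0 to 2 for YFSJ 5 mg/mL with gefitinib 50 µM and 0 to 2 for YFSJ 2.5 mg/mL with gefitinib 75 µM. Replicate numbers did not pair the libraries over the series as a whole. The median correlation of deviations between same-numbered libraries was -0.00766, -0.000870 and -0.0203 for numbers 1, 2 and 3. Of 120 pairs for each number, 16, 19 and 21 were above 0.1, and the highest were 0.285, 0.310 and 0.429. A median cannot exclude pairing within some of the groups. The replicate block left 279 of the 281 values on their side, with 10 genes called for 24 h against 0 h, 17 for CKI 1 mg/mL with gefitinib 50 µM and 16 for CKI 1 mg/mL with gefitinib 75 µM; ATP6V0D1 at 24 h against 0 h (adjusted p = 0.0552) and GAA in CKI 1 mg/mL with gefitinib 50 µM (0.0556) were lost. Genes near the floor, such as NEU1, did not pass the filter on low counts, so no change is given for them.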
